A study of Mus musculus with 8 samples.

Results

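The transcripts described here belong to leukocytes, measured in colonic stroma from which CD45-positive cells had been gated out. They are 39 genes chosen by symbol as marks of macrophages and their relatives, granulocytes, mast cells, T and cytotoxic lymphocytes, B cells, plasma cells and leukocytes in general. Of these, 38 had a row among the 24346 gene symbols of each library. Trac, the constant part of the T cell receptor alpha chain, had none and was not analysed here. The cells were live podoplanin-positive cells of the whole colon, sorted as negative for CD45, CD31, EpCAM and the dead-cell dye 7AAD. They came from 8 mice aged 12 weeks, 1 library per mouse. The 4 WT mice carried floxed Il10ra alleles (Il10ra flox/flox). The 4 cKO mice carried the same alleles with a Cre recombinase expressed from Pdgfra (Pdgfra cre; Il10ra flox/flox), so that floxed alleles are common to both groups and Cre is present in 1 group only. Pdgfra is a gene of fibroblasts, and Cre-positive mice without floxed alleles were not analysed here. Levels are FPKM, fragments divided by transcript length and by library depth, which allows levels of different genes to be set side by side.

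CD45, the protein used to gate leukocytes out, is a phosphatase encoded by Ptprc and carried on the surface of nearly all nucleated cells of blood origin. The colon wall is rich in such cells. Macrophages lie under the epithelium and in the muscle layer, plasma cells in the lamina propria secrete dimeric IgA held together by the joining chain, and B cells gather in lymphoid follicles whose stromal cells are also podoplanin-positive. Macrophages and B cells depend on the transcription factor PU.1, which recognises a purine-rich core sequence, whereas immunoglobulin genes carry an octamer motif.

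Promoter sequence is shown for 5 members on which the results turn: C1qb, C1qc and Cd68 for macrophages, Cd79a for B cells and Jchain for plasma cells. Each run comes from the 250 bases before the RefSeq start (GRCm38.p6), 5′ to 3′ on the gene's own strand. RefSeq and GENCODE, which gives the gene positions below, place the starts differently. For C1qc 151 bases and for Cd79a 116 bases of that window lie inside the GENCODE gene, and these are not printed. Capitals mark a match to GAGGAA, the PU.1 core, on either strand (its reverse complement reads TTCCTC). The printed runs lie at chr4:136886201-136886450 for C1qb, chr4:136893066-136893164 for C1qc and chr11:69666171-69666420 for Cd68, all on the minus strand. Those of Cd79a (plus strand) and Jchain (minus strand) lie at chr7:24897247-24897380 and chr5:88527898-88528147.
C1qb: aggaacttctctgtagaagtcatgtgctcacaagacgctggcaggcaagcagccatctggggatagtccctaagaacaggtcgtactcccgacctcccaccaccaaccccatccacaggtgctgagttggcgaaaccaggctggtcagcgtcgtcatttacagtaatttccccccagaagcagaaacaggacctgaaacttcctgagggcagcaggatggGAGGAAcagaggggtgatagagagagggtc
C1qc: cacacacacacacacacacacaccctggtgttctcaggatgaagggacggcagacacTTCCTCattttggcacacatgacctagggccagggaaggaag
Cd68: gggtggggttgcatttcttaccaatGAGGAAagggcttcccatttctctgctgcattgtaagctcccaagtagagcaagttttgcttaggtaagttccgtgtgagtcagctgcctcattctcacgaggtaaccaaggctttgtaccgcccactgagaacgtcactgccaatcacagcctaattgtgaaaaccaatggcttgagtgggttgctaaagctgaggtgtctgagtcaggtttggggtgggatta
Cd79a: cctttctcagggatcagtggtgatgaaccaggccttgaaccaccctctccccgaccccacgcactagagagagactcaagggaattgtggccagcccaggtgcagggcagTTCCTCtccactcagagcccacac
Jchain: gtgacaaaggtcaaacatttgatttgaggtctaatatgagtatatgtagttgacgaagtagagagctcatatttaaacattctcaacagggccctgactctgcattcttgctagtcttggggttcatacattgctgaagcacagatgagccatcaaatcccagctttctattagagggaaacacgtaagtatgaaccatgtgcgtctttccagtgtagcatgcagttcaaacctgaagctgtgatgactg
The core was found once in C1qb, beginning 30 bases before the RefSeq start, once in C1qc at 193 bases, once in Cd68 at 225 bases and once in Cd79a at 140 bases. Counted from the GENCODE start, these distances were 43, 42, 242 and 24 bases. It was not found in Jchain. Over all 28 members with a promoter, in the whole 250 bases before the RefSeq start, 14 held GAGGAA (50%), against 23.3% of the 32851 promoters of the same length. A member counted if any of its promoter windows held the core, whereas the 23.3% counts single windows. The shares are therefore not on the same unit. The 14 were C1qb, C1qc, Cd68, Itgam, Mrc1, S100a8, Kit, Cd3d, Cd3e, Cd8a, Cd79a, Ptprc, Laptm5 and Cd53. The core was thus not limited to macrophage and B cell genes, and the 5 printed runs do not stand for that share. ATGCAAAT, the immunoglobulin octamer, was searched on both strands. It was in no window of the 28 members and in 1.60% of all promoters. With no octamer found, no match overlapped another, and a match describes the letters in the window and not a bound site.

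The sort was visible in the libraries. Podoplanin (Pdpn) was between 84.8 and 94.7 FPKM and Pdgfra between 126 and 167 FPKM, while the 8 fibroblast genes listed summed to between 16378 and 19871 FPKM. Relative depth, read from the whole-number steps of low values, lay between 0.868 (WT 2) and 1.10 (cKO 3) of WT 1, whose depth was estimated at 17500000 fragments. Il10ra, the floxed gene, was low in every library, at 0.842, 0.665, 0.614 and 0.403 FPKM in WT and at 0.439, 0.273, 0.633 and 0.636 FPKM in cKO. The groups overlapped (means of 0.631 ± 0.181 and 0.495 ± 0.175, SD, n = 4 each), and the log2 difference was -0.13 with a standard error (SE) of 0.11 and an adjusted p of 0.925 in limma. An FPKM of the whole gene does not separate its floxed part from the rest. Library cKO 1 stood apart. Its 18 epithelial genes summed to 1141 FPKM and those of cKO 2 to 577 FPKM, against 54.1 and 149 in the other cKO libraries and 68.5 to 146 in WT. All 18 were detected in some library. Several leukocyte genes named below were also highest in cKO 1. In cKO 2 the macrophage members summed to 80.3 FPKM, against 65.9 to 92.9 in WT. The part of epithelial RNA in those results was not tested. Of 8 blood endothelial genes, 6 were also highest in cKO 1, against 20.02% of all genes above 0. The 8 summed to 25.9 FPKM in cKO 1, 10.3 to 12.4 in the other cKO libraries and 5.97 to 9.75 in WT, without overlap. All 8 had a higher mean in cKO, against 51.8% of all genes above 0.

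Leukocyte transcripts were present at low levels in all 8 libraries. Mean FPKM over the libraries ran from 0.0875 for Cd8a to 46.2 for Jchain. It was under 1 for 16 members, from 1 to 10 for 18 and at least 10 for 4, namely Jchain, Lyz2, Cd52 and Laptm5. Among the 18065 genes above 0 in any library, the members sat between the 16.9th and the 90.7th percentile, with a median at the 42.1st. In 34 members every library was above 0, and the other 4 (S100a9, Cpa3, Cd8a and Gzma) were listed at 0 in at least 1 library. Whole fragment numbers could be recovered for 31 members. Totals over the 8 libraries ran from 23 fragments for S100a9 to 3421 for Laptm5, and 5 members had fewer than 100. In bulk libraries such as these, fewer cells of a type and less RNA per cell cannot be told apart.

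**Figure D1:**
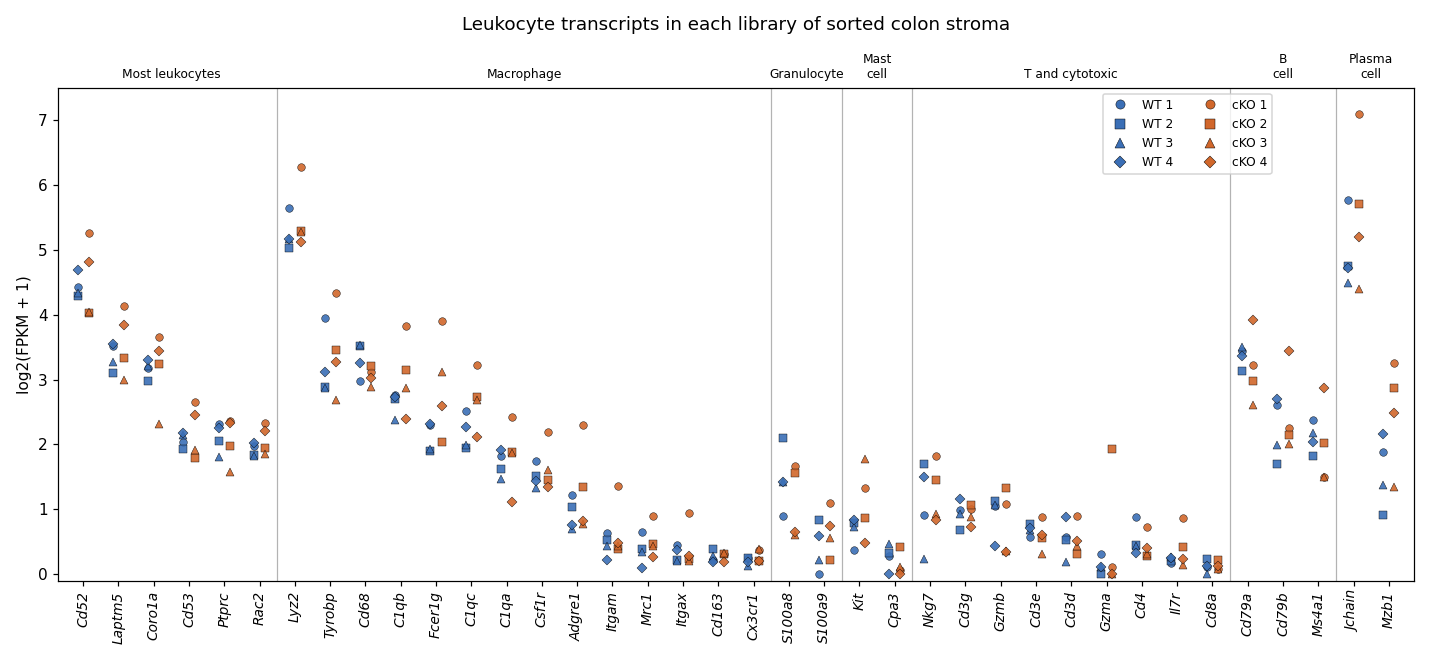
Each point is the level of a member in a single library, as log2(FPKM + 1) on the vertical axis, with the 38 measured members grouped by cell type along the horizontal axis. Blue points are the 4 WT and orange points the 4 cKO libraries, with a symbol for each replicate number. Jchain and Lyz2 stand highest, and cKO 1 is the highest library for 24 of the 38 members.

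Ptprc, which encodes CD45 itself, was present in all libraries of the CD45-negative gate. It stood at 3.98, 3.13, 2.49 and 3.79 FPKM in WT and at 4.15, 2.95, 1.99 and 4.01 FPKM in cKO. The groups overlapped across almost their whole ranges (log2 difference -0.04, SE 0.18, limma adjusted p = 0.991). Set against Pdgfra in the same library, Ptprc was between 0.0119 (cKO 3) and 0.0329 (cKO 1) of its FPKM. Cd52, Laptm5 and Coro1a, also shared by most leukocytes, were higher. Cd52, a small glycoprotein anchored on lymphocytes and monocytes, ran from 18.5 to 24.8 FPKM in WT and from 15.2 to 37.2 in cKO. Laptm5, a lysosomal membrane protein of blood cells, ran from 7.55 to 10.7 FPKM in WT and from 6.95 to 16.6 in cKO. Coro1a, an actin-binding protein of leukocytes, ran from 6.91 to 8.87 FPKM in WT and from 3.99 to 11.5 in cKO. For these 3, as for Cd53, a tetraspanin, and Rac2, the blood-cell form of the Rac GTPase, the highest value was in cKO 1. Cd53 had 2.48 to 5.30 FPKM and Rac2 2.55 to 4.02 FPKM over all libraries. The mean of cKO was above that of WT for 5 of these 6 genes, against 51.8% of all genes above 0. Their median log2 difference was 0.11, which became -0.08 without cKO 1.

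The macrophage group was the largest (14 genes) and included abundant and scarce transcripts. Lyz2, lysozyme of myeloid cells, was at 49.1, 31.6, 35.1 and 34.95 FPKM in WT and at 76.7, 38.2, 37.8 and 33.9 FPKM in cKO. cKO 1 was highest and WT 1 next, and the other 6 libraries lay close together. Lyz2 has a near-identical neighbour, Lyz1, so its FPKM is uncertain. The difference between the group means, 37.7 ± 7.78 against 46.6 ± 20.1 FPKM, was smaller than the spread within cKO (log2 difference 0.24, SE 0.24, limma adjusted p = 0.946).

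C1qa, C1qb and C1qc encode the 3 chains of C1q, the recognition part of the classical complement pathway, which tissue macrophages make. The genes lie side by side on the minus strand of chromosome 4 (mm10), C1qb at 136880129 to 136886187, C1qc at 136889804 to 136893065 and C1qa at 136895917 to 136898803. C1qb was at 5.75, 5.53, 4.20 and 5.61 FPKM in WT and at 13.2, 7.85, 6.28 and 4.24 FPKM in cKO. C1qc was at 4.72, 2.86, 2.99 and 3.79 FPKM in WT and at 8.36, 5.64, 5.41 and 3.34 FPKM in cKO. C1qa was at 2.53, 2.06, 1.75 and 2.77 FPKM in WT and at 4.34, 2.70, 2.65 and 1.16 FPKM in cKO. All 3 chains were highest in cKO 1, followed among the cKO libraries by cKO 2 and cKO 3, with cKO 4 lowest, and the groups overlapped for each. The level of C1qb over C1qc stayed between 1.16 and 1.93 in the 8 libraries, and that of C1qb over C1qa between 2.02 and 3.66. For C1qc the log2 difference was 0.51 (SE 0.22), with an unadjusted p of 0.0411 and an adjusted p of 0.897 in limma and a two-sided exact permutation p of 0.0857. C1qb differed by 0.42 (SE 0.25, limma adjusted p = 0.902) and C1qa by 0.12 (SE 0.24, limma adjusted p = 0.979). The recovered C1qb fragments numbered 68 to 91 per WT library and 68 to 220 per cKO library, and the variance over all libraries was 21.1 times that from counting.

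Fcer1g and Tyrobp encode the signalling adaptors that pair with activating receptors of myeloid and natural killer cells. Fcer1g was at 3.93, 2.74, 2.80 and 3.95 FPKM in WT and at 14.0, 3.12, 7.72 and 5.06 FPKM in cKO. In 3 of the 4 cKO libraries it was above every WT library, and cKO 2 lay within the WT range. Its log2 difference of 0.81 (SE 0.33) had an unadjusted p of 0.0348 and an adjusted p of 0.897 in limma, and a two-sided exact permutation p of 0.0857. Tyrobp did not follow the same order. It was at 14.5, 6.35, 6.28 and 7.71 FPKM in WT and at 19.1, 10.0015, 5.45 and 8.69 FPKM in cKO, with WT 1 the second highest library (log2 difference 0.23, SE 0.34, limma adjusted p = 0.969).

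Cd68, a lysosomal glycoprotein widely used to stain macrophages, was the only macrophage member with a lower mean in cKO. It was at 6.87, 10.5, 10.6 and 8.57 FPKM in WT and at 7.67, 8.29, 6.41 and 7.09 FPKM in cKO. The ranges overlapped through WT 1 (log2 difference -0.26, SE 0.13, limma adjusted p = 0.897, two-sided exact permutation p = 0.143). cKO 1 was not raised for this gene, at 0.925 of the median of the other 7 libraries, against 2.19 for Lyz2, 2.35 for C1qb and 5.19 for Adgre1. Relative to Lyz2, Cd68 ran from 0.10005 in cKO 1 to 0.331 in WT 2. Csf1r, the receptor for the growth factor that macrophages need, had 1.505 to 2.34 FPKM in WT and 1.53 to 3.57 in cKO.

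The other surface proteins of macrophages and dendritic cells had means near 1 FPKM or below it. Adgre1, the F4/80 antigen, was at 1.32, 1.05, 0.611 and 0.697 FPKM in WT and at 3.93, 1.54, 0.717 and 0.758 FPKM in cKO. The cKO 1 value came from 232 recovered fragments, against 35 to 89 in the other libraries. Itgam and Itgax, the alpha chains of the CD11b and CD11c integrins, repeated that pattern. Itgam was at 1.55 FPKM in cKO 1 and at 0.166 to 0.558 elsewhere. Itgax was at 0.918 FPKM in cKO 1 and at 0.153 to 0.369 elsewhere. Mrc1, the mannose receptor, was highest in cKO 1 as well, at 0.857 FPKM against 0.0621 to 0.563. Cx3cr1, the fractalkine receptor, had 0.0898 to 0.307 FPKM with cKO 3 and cKO 1 highest. Cd163, the scavenger receptor for haemoglobin bound to haptoglobin, did not follow cKO 1, with 0.139 to 0.312 FPKM and its highest value in WT 2. The variance of Cd163 over the libraries was 1.33 times that from counting alone, while for Adgre1 it was 53.4 times.

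Across the macrophage group the mean was higher in cKO for 13 of 14 genes, with a median log2 difference of 0.18. Over all 18065 genes above 0 in any library 51.8% had a higher mean in cKO and the median difference was 0.0037. Without cKO 1 the count was 7 of 14 and the median -0.01, and 50.6% of all genes had a higher mean. The summed FPKM of the group was 92.9, 65.9, 66.9 and 70.5 in WT and 154.8, 80.3, 75.8 and 66.9 in cKO. Of a wider list of 22 macrophage genes, 18 had a higher mean in cKO, 14 without cKO 1. Abundant genes of that list were Cd14, the co-receptor for endotoxin, with 6.14 to 12.4 FPKM, and Ctss, the lysosomal protease cathepsin S, with 4.22 to 17.6 FPKM. Both were highest in cKO 1. The single wider macrophage gene with an unadjusted p under 0.05 was Mpeg1, perforin-2, named after its values were seen. It stood at 0.449 to 0.670 FPKM in WT and at 0.684 to 1.40 in cKO, without overlap. Its log2 difference was 0.35 (SE 0.12) and its unadjusted limma p 0.0161, and it was not called after adjustment. Over all wider lists, 3 of 96 genes had an unadjusted limma p under 0.05, all higher in cKO. Of all genes above 0, 2.63% were higher at that threshold. All 4 cKO libraries were above all 4 WT libraries for 1 of the 96, as for 1.45% of all genes.

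**Figure D2:**
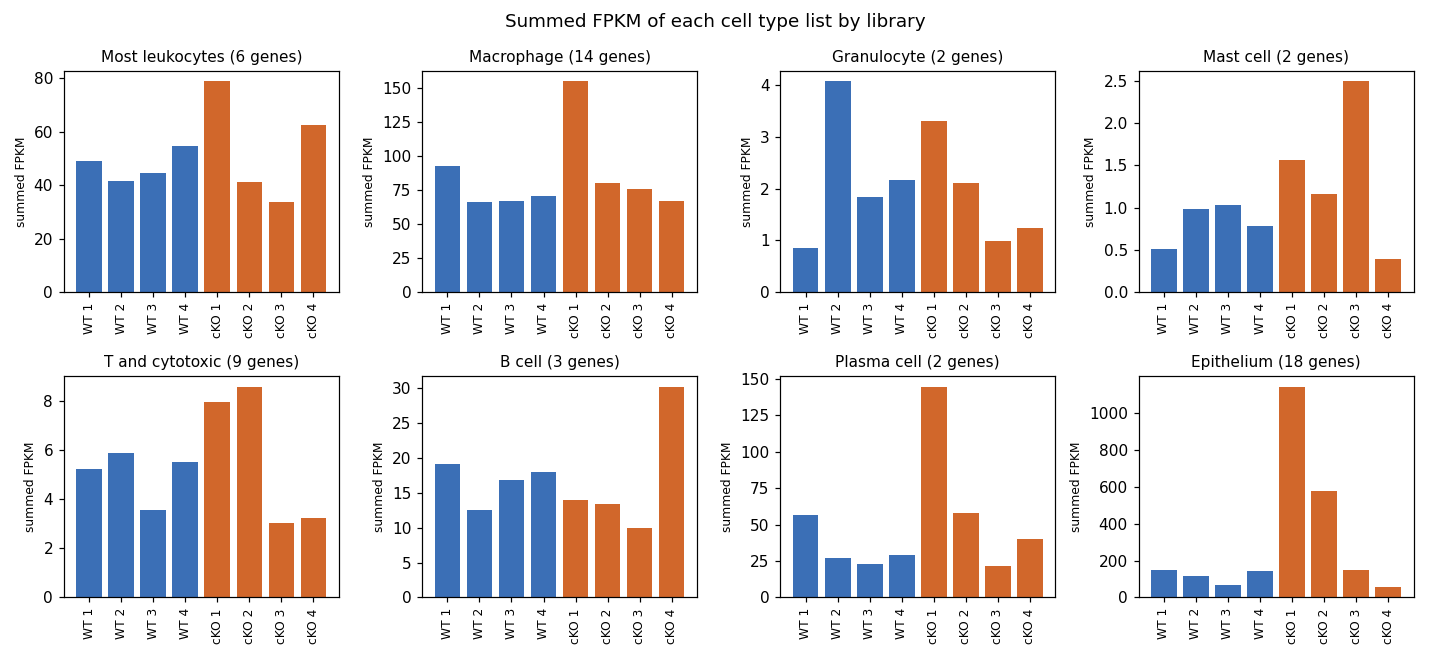
Bars give the summed FPKM of the members of each cell type in every library (blue WT, orange cKO), with 18 epithelial genes in the last panel; each panel has its own vertical axis starting at 0. Macrophage, plasma cell and epithelial sums are highest in cKO 1 (154.8, 145 and 1141 FPKM), the B cell sum in cKO 4 (30.3 FPKM).

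Granulocyte transcripts were sparse. S100a8 and S100a9 encode the paired subunits of calprotectin, the main soluble protein of neutrophils. S100a8 was at 0.857, 3.29, 1.68 and 1.67 FPKM in WT and at 2.17, 1.94, 0.521 and 0.564 FPKM in cKO. S100a9 was at 0, 0.784, 0.166 and 0.498 FPKM in WT and at 1.13, 0.165, 0.466 and 0.672 FPKM in cKO. The pair did not rank the libraries alike, and the values rest on totals of 44 and 23 fragments. Their variance was 1.88 and 1.73 times that from counting. The log2 difference was -0.34 (SE 0.31) for S100a8 and 0.24 (SE 0.22) for S100a9, with limma adjusted p of 0.934 and 0.925. Of 11 further granulocyte genes, Mmp8 and Epx were listed at 0 in every library and Prg2 and Cxcr2 reached at most 1.18 and 0.594 FPKM. Retnlg, a resistin-like gene of neutrophils, was the exception, with 5.74 to 15.5 FPKM in WT and 2.91 to 32.6 in cKO, and its highest value in cKO 1.

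Mast cells were represented by Cpa3, their granule carboxypeptidase, and by Kit, the receptor for stem cell factor. Cpa3 was at 0.217, 0.2499, 0.382 and 0 FPKM in WT and at 0.0412, 0.337, 0.0793 and 0 FPKM in cKO, from 30 fragments in all. Kit was at 0.294, 0.728, 0.653 and 0.779 FPKM in WT and at 1.52, 0.819, 2.41 and 0.389 FPKM in cKO. In 3 of the 4 cKO libraries Kit was above every WT library, and in cKO 4 it was below all but WT 1 (log2 difference 0.43, SE 0.26, limma adjusted p = 0.919). The pair differed in which libraries were high. Kit is also the defining gene of interstitial cells of Cajal, the pacemaker cells of the gut. Their other markers Etv1 and Ano1 were at 3.22 to 5.18 and 0.972 to 2.92 FPKM. In cKO 3, where Kit was highest, they stood at 4.64 and 1.68 FPKM. Of 10 further mast cell genes Tpsab1 was listed at 0 everywhere, and the most abundant, Gata2, Hdc and Mcpt1, stayed under 1 FPKM.

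T cell and cytotoxic transcripts were low in all libraries, and of the 9 measured genes Nkg7 alone had a mean FPKM of at least 1. Cd3e, a signalling chain of the T cell receptor complex, was at 0.484, 0.709, 0.603 and 0.644 FPKM in WT and at 0.836, 0.470, 0.241 and 0.522 FPKM in cKO. Cd3g had 0.609 to 1.23 FPKM and Cd3d 0.141 to 0.869 FPKM over all libraries. For Cd3g and Cd3e the variance was 0.706 and 1.37 times that from counting, from 113 and 103 fragments, so that libraries could hardly be told apart at this depth. Cd4, the co-receptor of helper T cells, had 0.219 to 0.845 FPKM, highest in WT 1. Cd8a, its cytotoxic counterpart, had at most 0.173 FPKM. Il7r, the interleukin-7 receptor of T cells and innate lymphoid cells, was at 0.823 FPKM in cKO 1 and at 0.0989 to 0.333 elsewhere.

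Gzma and Gzmb encode granzymes, the proteases of cytotoxic granules, and both were uneven between libraries. Gzma was at 0.241, 0, 0.0786 and 0.0784 FPKM in WT and at 0.0763, 2.81, 0 and 0 FPKM in cKO. These correspond to 3, 0, 1 and 1 fragments in WT and to 1, 36, 0 and 0 in cKO, so that cKO 2 alone held 36 of 42 fragments. Its ratio of group means, 7.25, came from that library, and the log2 difference of 0.38 (SE 0.41, limma adjusted p = 0.930) became -0.10 without it. Gzmb was at 1.07, 1.18, 1.09 and 0.349 FPKM in WT and at 1.10, 1.52, 0.286 and 0.265 FPKM in cKO. It thus divided each group, with WT 4, cKO 3 and cKO 4 low. Nkg7, a granule membrane protein of killer cells, had 0.174 to 2.25 FPKM in WT and 0.790 to 2.53 in cKO. Over the 9 genes, 4 had a higher mean in cKO, and the median log2 difference was -0.0042. Wider lists of 15 T cell and 11 natural killer and innate lymphoid genes had higher means for 11 and 10 genes. Without cKO 1 these counts were 9 and 8. Of all genes above 0, 51.8% had a higher mean in cKO, and 50.6% without cKO 1. The most abundant genes of these lists were Cd28, the costimulatory receptor, and Ccl5, a chemokine of cytotoxic cells. Cd28 had 4.13 to 5.47 FPKM, with its lowest value in cKO 1 and a mean of 4.83, against 0.564 for Cd3e. The source of Cd28 RNA was not tested. Ccl5 had 1.61 to 5.12 FPKM. Xcl1, another chemokine of cytotoxic cells named after its values were seen, had an unadjusted limma p of 0.0190, and 3 of its 4 WT libraries were listed at 0. Xcl1 was among the 3 of 96 wider-list genes with an unadjusted limma p under 0.05. All 3 were higher in cKO, as were 2.63% of all genes above 0 at that threshold.

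B cell transcripts ordered the libraries in another way. Cd79a and Cd79b encode the signalling chains of the B cell receptor, and Ms4a1 encodes CD20. Cd79a (chromosome 7, 24897381 to 24902197, mm10) was at 9.85, 7.73, 10.3 and 9.33 FPKM in WT and at 8.35, 6.90, 5.11 and 14.1 FPKM in cKO. Cd79b was at 5.12, 2.26, 2.99 and 5.53 FPKM in WT and at 3.78, 3.44, 3.04 and 9.80 FPKM in cKO. Ms4a1 was at 4.22, 2.53, 3.52 and 3.09 FPKM in WT and at 1.84, 3.07, 1.82 and 6.33 FPKM in cKO. All 3 were highest in cKO 4, and the cKO libraries reached both above and below WT for Cd79a and Ms4a1. The log2 differences were -0.17 (SE 0.23), 0.21 (SE 0.33) and -0.13 (SE 0.28), with limma adjusted p of 0.965, 0.970 and 0.983. Of 14 further B cell genes 11 were also highest in cKO 4, where 13.2% of all genes above 0 had their highest value. cKO 3 was the lowest library for 10 of the 17 B cell genes, against 8.45% of all genes. cKO 4 had the smallest epithelial sum of all libraries and cKO 1 the greatest. The relation of that sum to B cell levels was not tested.

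Both plasma cell members were highest in cKO 1, where no B cell member was. Jchain (chromosome 5, 88519809 to 88527891, mm10), the joining chain of dimeric IgA, was at 53.7, 26.0, 21.5 and 25.3 FPKM in WT and at 136, 51.4, 20.04 and 35.7 FPKM in cKO. cKO 1 held the highest value and WT 1 the next, and the lowest was also in cKO (log2 difference 0.67, SE 0.50, limma adjusted p = 0.929). Mzb1, a chaperone of the endoplasmic reticulum that helps antibody assembly, was at 2.70, 0.888, 1.59 and 3.46 FPKM in WT and at 8.50, 6.30, 1.55 and 4.57 FPKM in cKO. In 3 of the 4 cKO libraries Mzb1 was above every WT library, and cKO 3 was near the lower end of the WT range. The exons of Mzb1 overlap those of a gene annotated on the same strand, so that its level is uncertain. Its log2 difference, 0.90 (SE 0.39), had an unadjusted p of 0.0459 and an adjusted p of 0.897 in limma, with a two-sided exact permutation p of 0.143. The ratio of Jchain to Mzb1 varied from 7.32 to 29.3 between libraries. Of 5 further plasma cell genes, cKO had the higher mean for 3, against 51.8% of all genes above 0. Highest in cKO 1 were 3 (Sdc1, Derl3 and Irf4), against 20.02% of all genes. Prdm1 was highest in WT 3 and Tnfrsf17, named after its values were seen, in cKO 4. The most abundant were Sdc1, the plasma cell surface proteoglycan that epithelium also carries (6.18 to 12.9 FPKM), and Prdm1 and Irf4, transcription factors of plasma cells (0.844 to 2.04 and 0.636 to 1.07 FPKM). Derl3, a gene of protein degradation in the endoplasmic reticulum named after its values were seen, had an unadjusted limma p of 0.0401. Derl3 was among the 3 of 96 wider-list genes with an unadjusted limma p under 0.05. All 3 were higher in cKO, as were 2.63% of all genes above 0 at that threshold. Immunoglobulin constant region genes had no row and were not analysed here.

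No member was called in the comparison of genotypes. The comparison asks whether leukocyte RNA in the sorted stroma differed when the mice carried the Cre. At an adjusted p under 0.05 in limma, 0 of the 22 members with a mean FPKM of at least 1 were higher in cKO, as were 0.0% of the 11506 genes tested. None of the 22 was lower, against 0.00869% of genes tested (1 gene, Mir5098). Adjusted p-values of the 22 ran from 0.897 to 0.996, and those of the other 16, from the fit of all 18065 genes in which 0.00554% were called in either direction, from 0.919 to 1.00. At an unadjusted p under 0.05 the 22 included Fcer1g, C1qc and Mzb1, all with a higher mean in cKO. That is 3 of 22 members, where 2.37% of the genes tested were higher at that threshold and 5.41% passed in either direction. In the fit of all genes above 0, 0 of 38 members had an unadjusted p under 0.05, against 2.63% of genes higher and 2.57% lower. No member had all 4 cKO libraries above all 4 WT libraries, or all below, as 1.45% and 1.49% of genes had. The smallest two-sided exact permutation p among the members was 0.0857, where 4 against 4 libraries allow 0.0286. With 4 mice a group, the ranges of the groups overlapped for every member, and a p above the threshold does not show that levels were equal.

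**Figure D3:**
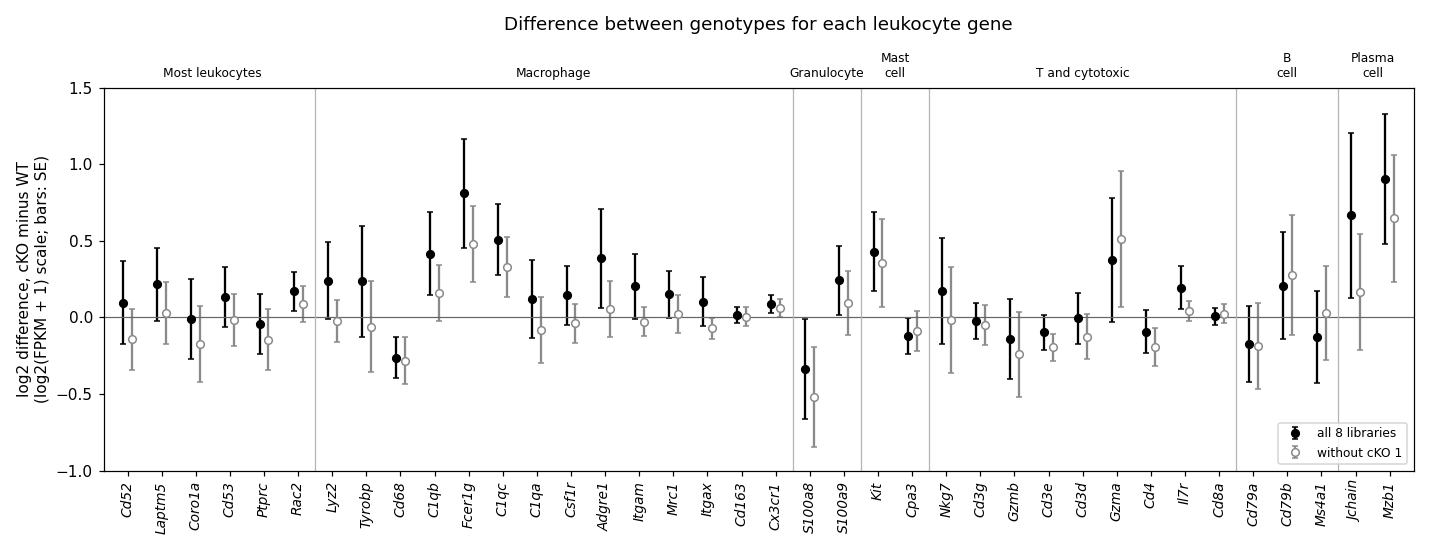
Difference of mean log2(FPKM + 1) between cKO and WT for each of the 38 members, with its standard error from the limma fit of all 18065 genes above 0 (filled points, vertical axis); open points give the same without cKO 1. For 24 members the difference is within 1 standard error of 0 and for 14 it is beyond, and 10 members change sign when cKO 1 is left out.

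Many of the higher means rested on cKO 1. It was the highest of the 8 libraries for 24 of 38 members (63.2%), against 20.02% of all genes above 0. With ties left out, it was the lowest for none, against 15.3% of all genes. Of the 14 macrophage members 11 were highest there, and of the 36 macrophage genes with the wider list 26. Over all 38 members 27 had a higher mean in cKO, with a median log2 difference of 0.14, where 51.8% of all genes above 0 and 47.8% of those with a mean FPKM of at least 1 had a higher mean. Without cKO 1 these became 19 of 38 and -0.02. Leaving out the library that is most often highest lowers such figures in any case. Lyz2, Tyrobp, C1qa, Csf1r, Itgam, Itgax, Nkg7, Ms4a1, Cd52 and Cd53 changed the sign of their difference when cKO 1 was left out. No member was called without it, where 0.035% of genes tested were called in either direction. cKO 3, in turn, was the lowest library for 11 of 38 members with ties left out (28.9%), against 8.45% of all genes. Leaving out cKO 3 changed the sign for 5 members. The epithelial sum of cKO 1 was 1141 FPKM. cKO 2 had the next highest epithelial sum (577 FPKM). It was the highest library for 2 of 38 members (5.26%), against 12.5% of all genes. With ties left out, it was the lowest for 3 of 38 (7.89%), against 10.4% of all genes. A count of highest values leaves out genes for which cKO 2 was second to cKO 1. The 38 members summed to 204 FPKM in cKO 2, against 158 to 224 in WT. The relation of the epithelial sum to these values was not tested.

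The spread between mice was wider in cKO for most members. The SD of log2(FPKM + 1) was greater in cKO than in WT for 29 of 38 members (76.3%), against 58.4% of all genes above 0. Without cKO 1 the count was 24 of 38 (63.2%), against 48.0%. For the macrophage members it went from 12 to 6 of 14 when cKO 1 was left out. For the 17 B cell genes, members and wider list together, it was 16 with cKO 1 and 17 without it. Where fragments could be recovered, the variance over the 8 libraries was less than 2 times that from counting for 5 members (Cd3g, Cd163, Cd3e, S100a9 and S100a8). It was far above counting for Adgre1 (53.4 times), Laptm5 (40.9), Itgam (31.5), Gzma (29.0), Mzb1 (24.4), Cd79b (23.6), Fcer1g (23.2) and Ms4a1 (23.0). These figures describe counting error only, since amplified fragments are not independent molecules.

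**Figure D4:**
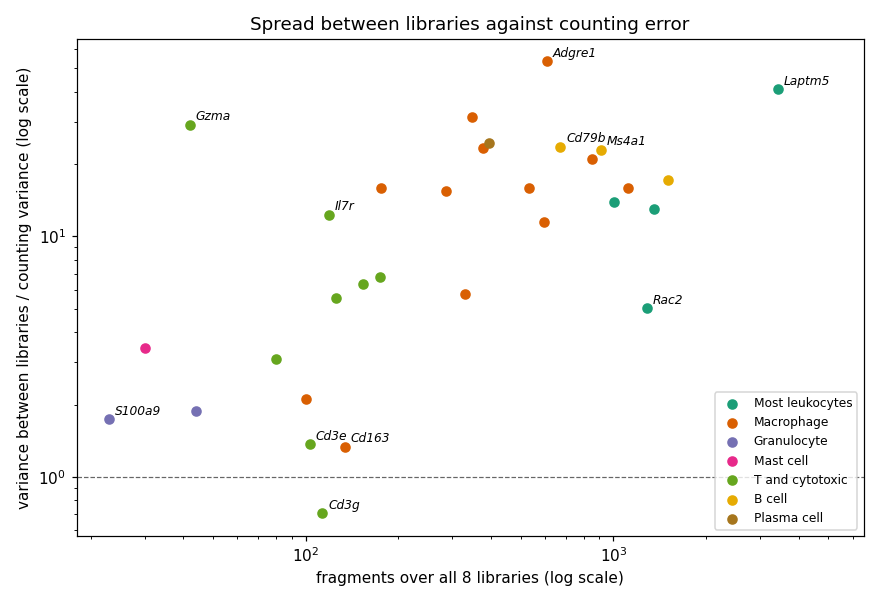
Each point is a member with recovered fragment numbers (31 members, coloured by cell type), with its variance over the 8 libraries divided by the variance from counting alone on the vertical axis and its total fragments on the horizontal axis, both on log scales. The dashed line marks a ratio of 1. Adgre1 stands highest at 53.4, and Cd3g is lowest at 0.706.

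Exons of 7 members overlap those of another annotated gene, and the levels of these members are uncertain. Mzb1 (SPATA24) and Itgam (Gm49368) overlap a gene on the same strand, which strand cannot separate. Csf1r (Hmgxb3), Coro1a (Bola2), Cd52 (Crybg2), Cx3cr1 (Gm33858) and Cd3e (Gm48719) overlap a gene on the opposite strand. Whether counting used strand is not given in the sources used here, so that reads of these 5 pairs cannot be told apart.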

How the data were processed

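RNA of sorted colon stroma was sequenced from SMART-Seq HT cDNA with NexteraXT libraries, per the labels' protocols. The authors deposited a table of FPKM values for each of the 8 libraries. The submitters' processing notes name the build mm10 and the tools Cufflinks 2.2.1, Cuffdiff, SAMtools 0.1.18, Bowtie2 2.3.5.1 and TopHat2 2.1.1. The sources used here give neither settings nor annotation. FPKM scales to the whole library, so that an abundant transcript lowers all others.

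The members and gene lists were chosen with earlier results of these data known. Groups came from the genotype labels, and the series' design text counts 4 mice a group. Genes whose FPKM averaged at least 1 (11506) were tested on log2(FPKM + 1) with limma 3.58.1 (R 4.3.3, eBayes with trend, Benjamini-Hochberg, adjusted p under 0.05). Members under that minimum were read from a fit of all 18065 genes above 0. Fold changes on this scale understate those of low genes. Exact permutation tests were two-sided over 70 arrangements. The procedure was tested on simulated data.

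Depth was recovered from genes with a mean FPKM under 0.3. Between 48.1% and 56.5% of them lay on whole-number steps (tolerance 0.002, log2 scale), so no count model was used. From 164 genes with a single transcript of at least 4000 bp, WT 1 held a median of 17500000 fragments (quartiles 16300000 and 17800000). A member's fragments were accepted within 0.06 of whole numbers. The ratio to counting variance carries no test.

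Named genes were all members, the 3 most abundant genes of the wider and other-cell lists used, and any called gene, and some of these are not reported here. Positions are from GENCODE (GRCm38, the mm10 assembly). Alternatives were pseudocounts of 0.1 and 0.25, no filter or a minimum of 5, quantile and median-of-ratios scaling, eBayes without trend, a replicate block and leaving out each library. Python 3.11.15, numpy 2.4.6, pandas 2.3.3, scipy 1.17.1 and matplotlib 3.10.9 were used.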

Additional observations from a re-analysis of the deposited data

Results flagged for a closer look

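Within each group of 4 libraries, a value was picked out where its gap to the nearest other library passed Dixon's critical share of the range of the group. Chance gives about 1 in 20 groups, and 9 of 90 tested groups met this. In cKO 1 they were Lyz2 at 76.7 FPKM (33.9 to 38.2 in the other cKO libraries), Itgam at 1.55 (0.306 to 0.395), Itgax at 0.918 (0.156 to 0.211) and the summed FPKM of the macrophage members at 155 (66.9 to 80.3), a sum that contains the former 3 genes. Lyz2 makes up much of that sum. In cKO 2 Gzma stood at 2.81 FPKM, against 0 to 0.0763 in the other cKO libraries. In cKO 4 Cd79b stood at 9.80 FPKM, against 3.04 to 3.78.

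In WT, Jchain stood at 53.7 FPKM in WT 1 (21.5 to 26.0 in the others). C1qb was low in WT 3 at 4.20 FPKM (5.53 to 5.75), and Gzmb was low in WT 4 at 0.349 FPKM (1.07 to 1.18). The epithelial sum was 146 FPKM in WT 1 and 142 in WT 4, and the relation of that sum to Jchain was not tested.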

How the results depend on the processing

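No member was called under any alternative run: 563 alternative values of the member differences had a smallest limma adjusted p of 0.761. Of these, 37 in 21 members had the other sign, and 17 members had none. Leaving out cKO 1 gave 10 of them, quantile normalization 2 (Cd163 and Cd8a), each smaller pseudocount 1 (Cd3d) and median-of-ratios scaling 0. Without cKO 1 the median difference of the macrophage members went from 0.18 to -0.01. Over all genes tested, 0 were called higher and 1 lower, and leaving out a library gave 0 to 3 higher and 1 to 2 lower. Called higher were 3 without cKO 1, 1 without WT 3 and 1 without cKO 2, and 2 were called lower without WT 3. The cause was not tested. With the replicate number as a block, 0 genes were called higher, 1 lower and 0 members. Same-numbered libraries deviated together with correlations of 0.0182 to 0.0912 only, so that the numbers were not taken to pair mice. Depth limits members with fewer than 100 fragments over 8 libraries (5 of 31 recovered), for which levels of single libraries rest on few fragments.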

Other observations

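Of 9 dendritic cell genes, 3 were highest in cKO 1 (Batf3, Cd209a and Flt3, named after their values were seen), and the most abundant were not. Irf8, a transcription factor of dendritic and B cells, ran from 18.9 to 22.4 FPKM in WT and from 20.2 to 27.5 in cKO. Zbtb46, a transcription factor of conventional dendritic cells, ran from 5.43 to 7.55 FPKM over all 8. Batf3, another such factor, was at 1.82 FPKM in cKO 1 and at 0.213 to 0.778 elsewhere. Ccr7, the receptor that guides dendritic cells and lymphocytes to lymphoid tissue, was highest in cKO 4 at 15.3 FPKM, as were the B cell members, against 5.95 to 10.6 elsewhere. Cxcl13, the chemokine that stromal cells of follicles make for B cells, was highest in WT 4 at 28.5 FPKM and stood at 17.0 FPKM in cKO 4. Tnfsf13b, the B cell survival factor BAFF, ran from 13.2 to 22.8 FPKM in WT and from 15.6 to 20.4 in cKO. None of these was called in limma.

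Haemoglobin transcripts were also found in the sorted cells. Hba-a1 stood at 179 FPKM in WT 1 and at 43.1 to 78.5 FPKM in the other 7 libraries. Its near-identical copy Hba-a2 shares fragments with it, so that each value alone is uncertain. Hba-a2 stood at 0.0445 FPKM in WT 1 and ran from 0.0441 (cKO 3) to 49.7 FPKM (WT 2) over the libraries. WT 1 was also the WT library with the highest Lyz2, Tyrobp and Jchain.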
